A study of Mus musculus with 2 samples.

Results

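The genes described here are 42 genes of innate immune sensing: the Toll-like receptors with their co-receptors, adaptors and kinases, the NOD-like receptors and inflammasome, and the NF-κB subunits with their inhibitors and activating kinases. They were taken from a list of symbols, and a probe set was used when the platform annotation gave it that symbol alone. Of the 42 genes, 36 had such a probe set, against 18193 genes on the whole array. *Ticam2*, *Irak4*, *Nlrc4*, *Nod2*, *Nfkb1* and *Chuk* were not among them and were not analysed here. The 36 genes had 69 probe sets in all. Signals were measured in perigonadal WAT of PeriA Tg mice and of WT littermates. The Tg mice were heterozygous for human PeriA under the aP2 promoter/enhancer, the WT mice lacked the transgene, and mice of both genotypes were female, C57BL/6, 30 weeks old and fed a HFD, with food removed overnight before harvest. RNA of 3 mice was pooled for each genotype, and each pool was hybridised to 1 array, so no error over mice can be given and nothing was tested. The aP2 gene, known for its expression in adipocytes, is also expressed in macrophages, and whether the transgene was active there was not tested.

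Toll-like receptors recognise microbial lipids, proteins and nucleic acids, some at the cell surface and others in endosomes. They signal through adaptors with a TIR domain to IRAK kinases and then to the IKK complex, which marks IκB proteins for destruction and so frees NF-κB dimers to enter the nucleus. The inflammasome is assembled from a sensor, the adaptor encoded by *Pycard* and caspase-1, which processes the precursors of IL-1β and IL-18. In the adipose tissue of obese mice, macrophages carry much of this machinery, adipocytes carry part of it, and saturated fatty acids and lipopolysaccharide are among the signals studied.

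Signal is the brightness of a probe set on a linear scale. Where a gene had several probe sets, the one with the highest mean log2 signal gave its value, and the signal log ratio was the log2 of Tg signal over WT signal. Genes with both signals below 98.2, the median over the 2 arrays, were set aside. That left 34 of the 36 genes, and 11587 genes on the array. Of the 34, 3 had a signal log ratio over 0.3, the threshold of the study's methods, or 8.82%, against 16.6% of all genes that passed. Under -0.3 were 10 of the 34, or 29.4%, against 16.9% of all genes. The median of the 34 was -0.07, and that of all genes was 0.02. The Toll-like receptors and the inflammasome genes held 7 of the 10 low values, counting only receptors proper, and the 3 values over 0.3 belonged to *Irak1*, *Rela* and *Relb*. When both arrays were centred on their medians, 8 of the 34 genes were over 0.3 and 9 under -0.3, against 24.9% and 13.0% of all genes. Genes over 0.3 then made up 47.1% of those past the threshold in either direction, against 23.1% from the signals as deposited, and over all genes the shares were 65.6% and 49.6%. With a stricter filter at 470.5, the 75th percentile of all signals, 3 of 21 genes were under -0.3, or 14.3%, against 11.5% of all genes, so that most of the low values belonged to genes with signals below 470.5.

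**Figure D1:**
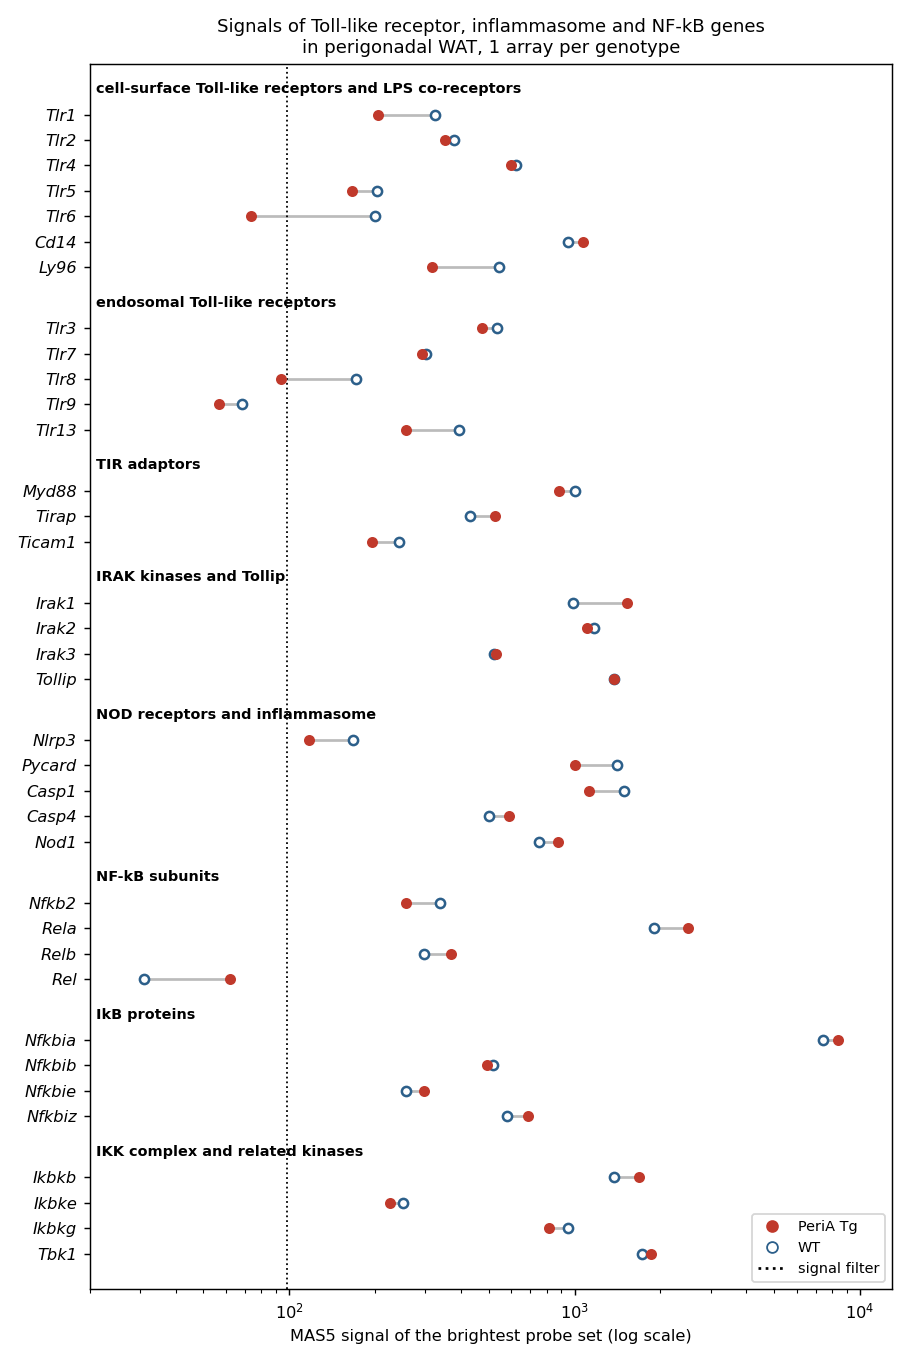
Signal of the brightest probe set (horizontal axis, log scale) of each of the 36 genes, ordered by role, with 1 array of pooled RNA per genotype: filled red points are PeriA Tg, open blue points are WT, and the dotted line is the signal filter at 98.2. The Tg points of *Tlr1*, *Tlr6*, *Ly96*, *Tlr8* and *Tlr13* lie to the left of their WT points, and those of *Irak1*, *Rela* and *Relb* to the right.

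The scatter of signal log ratios on these arrays depends on the signal. To give its size, the genes that passed were divided into 20 groups of 579 or 580 genes by mean log2 signal. The middle 90% of the signal log ratios in the group of *Tlr6* ran from -0.89 to 0.75, and in the group of *Nfkbia* from -0.30 to 0.37. This range can include real differences between the pools as well as measurement error. Of the 34 genes, 4 lay outside the range of their own group, or 11.8%, where 10% of all genes do so by construction. They were *Tlr6*, *Ly96* and *Pycard* below it and *Irak1* above it. A second measure of error comes from genes with several probe sets. Within the 13 genes of the list that had 2 or more passing probe sets, the pooled SD was 0.46, against 0.41 in 5260 such genes on the array, and this covers readings of the same pools only. In 7 of the 13 genes all passing probe sets went the same way, and in 6 they did not. Over all 58 passing probe sets of the list, 8 were over 0.3, or 13.8%, against 16.9% of the 20393 passing probe sets with 1 symbol. Under -0.3 were 20 of the 58, or 34.5%, against 21.9% of those on the array. Probe sets of 1 gene are not independent, and *Ikbkg* alone had 6 passing probe sets, all lower in Tg.

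**Figure D2:**
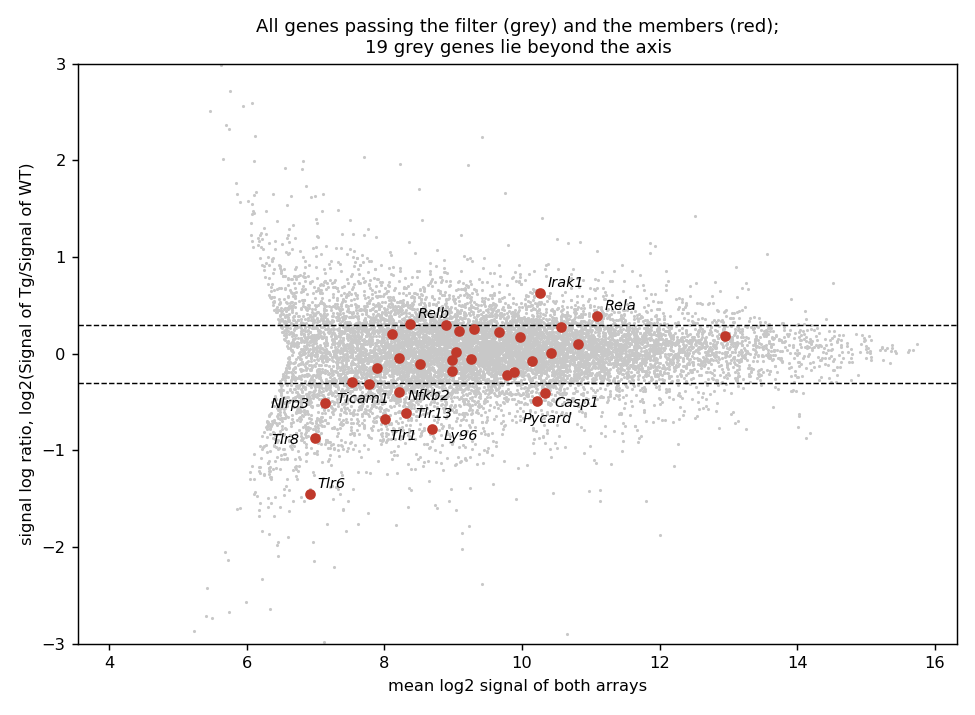
Signal log ratio (log2 of Tg over WT, vertical axis) by mean log2 signal (horizontal axis) for all 11587 genes that passed the signal filter (grey) and the 34 genes described here (red). Dashed lines mark 0.3 and -0.3, the genes past them are named, and 19 grey genes lie beyond 3 or -3. The grey scatter widens towards low signals, where *Tlr6* and *Tlr8* lie.

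Several genes of this pathway are themselves known targets of NF-κB, so the promoter sequences of the list were examined. Of the 42 genes, 33 had a promoter window in the RefSeq table for GRCm38.p6, of which the 250 bases upstream of each start were searched on both strands. The κB consensus, a motif of 10 bases bound by NF-κB dimers, had a match in 8 of the 33 genes, or 24.2%, against 4.46% of 27025 genes with a window. The core of the interferon-stimulated response element, GAAANNGAA, had a match in 5 of the 33 genes, or 15.2%, against 8.18% of all. The core of the PU.1 motif, GAGGAAGT, bound by the Ets factor of macrophages and other myeloid cells, had a match in 3 of the 33, or 9.09%, against 2.79% of all. A match describes the letters only. The stretches below are examples from 9 of the genes with a match, chosen with their values known to show each motif in receptors, inflammasome genes, subunits and inhibitors. They run 5′ to 3′ on the strand of the gene, with the matches in capitals, overlapping matches merged and up to 20 bases on either side. For *Nfkb2*, the first of 3 windows with a match is shown, and *Nfkbia* also holds a match to the interferon-stimulated response element core, the first of its capital runs.
*Tlr2*, κB, chr3:83841751-83841801, minus strand: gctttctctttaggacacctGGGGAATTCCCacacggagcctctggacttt
*Nlrp3*, κB, chr11:59541363-59541412, plus strand: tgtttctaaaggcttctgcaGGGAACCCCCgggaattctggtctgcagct
*Casp4*, κB, chr9:5308736-5308786, plus strand: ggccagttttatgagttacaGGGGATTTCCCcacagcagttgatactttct
*Nfkb2*, κB, chr19:46304678-46304736, plus strand: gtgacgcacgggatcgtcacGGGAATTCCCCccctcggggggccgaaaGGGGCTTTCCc
*Nfkbia*, κB, chr12:55492648-55492720, minus strand: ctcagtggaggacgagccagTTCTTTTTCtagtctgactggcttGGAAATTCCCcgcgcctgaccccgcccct
*Nfkbie*, κB, chr17:45555574-45555623, plus strand: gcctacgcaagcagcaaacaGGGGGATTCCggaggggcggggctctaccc
*Tlr6*, response element core, chr5:64959247-64959301, minus strand: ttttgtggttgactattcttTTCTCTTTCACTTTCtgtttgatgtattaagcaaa
*Tlr1*, PU.1 core, chr5:64933559-64933601, minus strand: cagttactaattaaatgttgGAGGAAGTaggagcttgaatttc
*Pycard*, PU.1 core, chr7:127993884-127993931, minus strand: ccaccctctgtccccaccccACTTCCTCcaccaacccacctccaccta

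The genes with a κB match were *Tlr2*, *Tlr3*, *Nlrp3*, *Casp4*, *Nfkb2*, *Rel*, *Nfkbia* and *Nfkbie*. For the 7 of these above the filter, the values ran from -0.51 to 0.23 with a median of -0.10, 3 above 0 and 4 below. The 20 passing genes with a window and no match had a median of -0.17. Thus the genes with the match lay on both sides of 0, as did those without it. The response element core matched *Tlr6*, *Tlr8*, *Myd88*, *Irak3* and *Nfkbia*, with values from -1.45 to 0.18 and a median of -0.18. The 22 passing genes with a window and no match to this core had a median of -0.12. The PU.1 core matched *Tlr1* and *Pycard*, both under -0.3, as were 29.4% of the 34 genes and 16.9% of all genes. It also matched *Rel*, which was under the filter. The 25 passing genes with a window and no PU.1 match had a median of -0.10 and ran from -1.45 to 0.63. Whether this motif goes with the values was not tested.

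Of the 10 Toll-like receptor genes, 9 passed the filter, and all 9 had a lower signal on the Tg array, where 46.7% of all genes were below 0. The values of *Tlr4* and *Tlr7* were closest to 0, and both were above 0 after median centring, as was *Tlr7* after quantile normalization. The median of the 9 was -0.29, and 4 of them were under -0.3, against 16.9% of all genes. With the filter on the lower of both signals, 2 of 7 were under -0.3, against 14.6% of all genes, and the median was -0.18. Only 2 receptor genes passed the stricter filter, and neither was under -0.3.
*Tlr6*, which pairs with TLR2 to recognise diacylated lipopeptides, had a signal of 73.4 in Tg WAT and 200.0 in WT WAT, a signal log ratio of -1.45 and the lowest of the 34 genes. The Tg signal was under the filter. *Tlr1*, the partner of TLR2 for triacylated lipopeptides, had 204.5 in Tg and 325.7 in WT (-0.67). *Tlr1* and *Tlr6* are related genes that lie next to each other in the RefSeq order of protein-coding genes, and whether their probes share transcripts was not analysed here. *Tlr2*, their common partner, had 352.7 in Tg and 378.2 in WT (-0.10), so that the receptor they both need differed least of these 3. *Tlr5*, the flagellin receptor, had 166.1 in Tg and 203.6 in WT, a signal log ratio of -0.29 just inside the threshold.
*Tlr4* encodes the receptor for lipopolysaccharide and is also known for its link to fatty acid-induced inflammation in fat. Its brightest probe set had 597.4 in Tg and 621.9 in WT (-0.06). The next had 537.9 in Tg and 626.2 in WT (-0.22), and the third had 168.1 in Tg and 303.6 in WT (-0.85). All 3 were lower in Tg, by amounts that differed among probe sets of the same transcript or its variants. *Ly96* encodes MD-2, the protein that binds lipopolysaccharide beside TLR4. It had 316.8 in Tg and 543.5 in WT (-0.78), below the range of genes with a like signal. *Cd14*, which hands lipopolysaccharide to MD-2 and TLR4 and is abundant in macrophages, had 1071 in Tg and 947.6 in WT (0.18), so that the 3 components of this receptor complex gave unequal values.

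The endosomal receptors sense nucleic acids. *Tlr8* had 93.6 in Tg and 171.4 in WT (-0.87), and *Tlr13*, which in mice recognises bacterial ribosomal RNA, had 257.1 in Tg and 392.2 in WT (-0.61). The Tg signal of *Tlr8* was under the filter, as it was for *Tlr6*, and with the filter applied to the lower of both signals these 2 genes drop out and 8 of 32 genes were under -0.3, against 14.6% of 10850 genes on the array. *Tlr7*, the neighbour of *Tlr8* in the gene order and a sensor of single-stranded RNA, had 292.8 in Tg and 301.0 in WT (-0.04). *Tlr3*, the receptor for double-stranded RNA, had 474.5 in Tg and 536.7 in WT (-0.18), and its second probe set had 215.8 in Tg and 241.2 in WT (-0.16). *Tlr9*, which detects unmethylated CpG DNA, was under the filter on both arrays, with 56.6 in Tg and 68.6 in WT. In this group too, the genes past the threshold were all lower in Tg.

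Because bulk tissue was used, fewer cells of a type and less RNA per cell cannot be told apart, and markers of macrophages were read beside the receptors. All 22 macrophage markers passed the filter. Of these, 15 were under -0.3, or 68.2%, against 16.9% of all genes, and none was over 0.3. Their median was -0.47, and their summed signal was 76936 in Tg and 104753 in WT. The values ran from -1.85 for *Trem2* to 0.10 for *Cd163*, the only marker above 0, and *Mrc1* was level (-0.0039). Among the 3 brightest, *Lyz2*, encoding lysozyme, had 19118 in Tg and 22571 in WT (-0.24). *Ctss*, encoding cathepsin S, had 7478 in Tg and 12862 in WT (-0.78), and *Csf1r*, the receptor of a macrophage growth factor, had 7708 in Tg and 8612 in WT (-0.16). Of 8 dendritic cell markers, 4 passed, with a median of -0.47, and *Batf3* and *Ccr7* among them passed only by their WT signal. Endothelial markers had a median of -0.08 over 10 genes, from *Tie1* (-0.72) to *Esam* (0.05). Fibroblast markers had 0.05 over 9, from *Col1a1* (-0.54) to *Pdgfra* (0.32). For the adipocyte markers, 11 of 12 passed, among them *Adipoq* with 43802 in Tg and 41052 in WT, and the median was 0.09. Their values ran from -0.64 for *Lep*, the only one below 0, to 0.57 for *Pparg*. Markers of the labelled tissue were thus present on both arrays. The part of macrophage number in the receptor values was not tested.

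**Figure D3:**
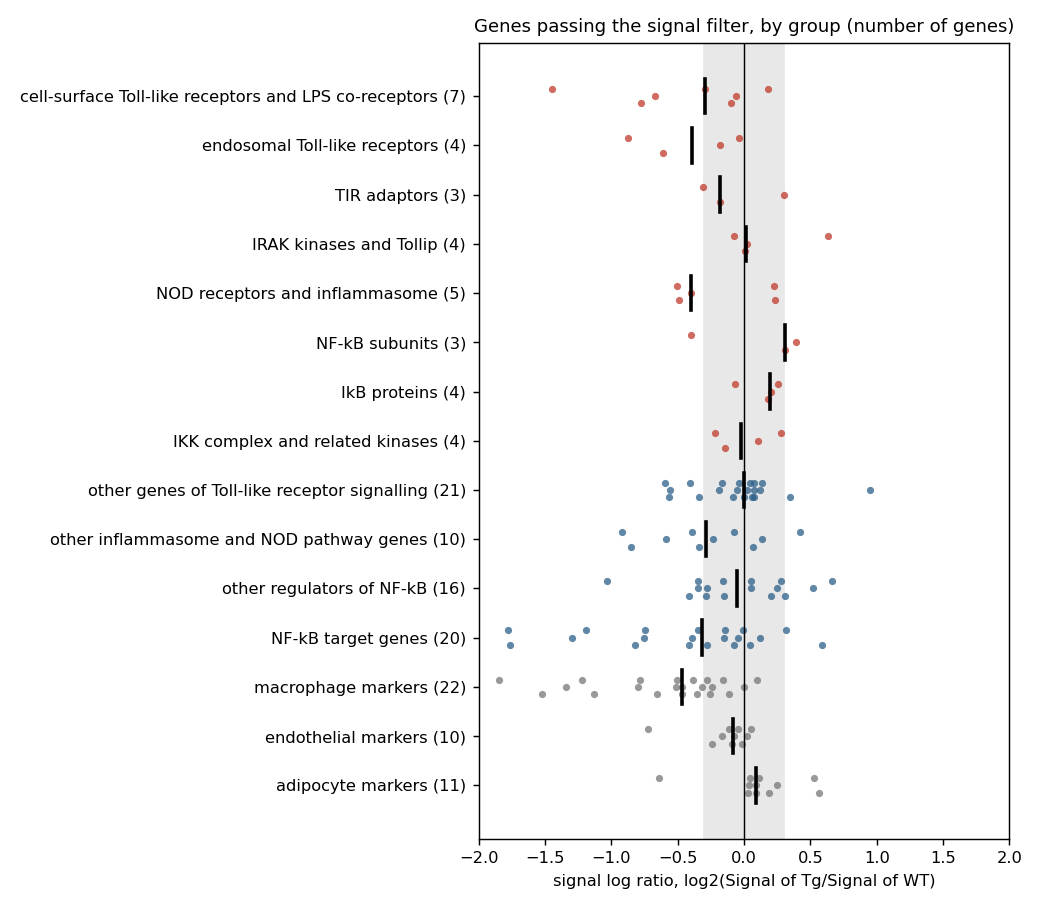
Signal log ratios (log2 of Tg over WT, horizontal axis) of genes that passed the signal filter, 1 point per gene, with the number of genes in brackets: red points are the 8 role groups of the genes described here, blue points are other genes of the same pathways and grey points are cell type markers. Black bars are medians, the band in grey spans -0.3 to 0.3, and points are spread vertically only for legibility. The medians of the receptor and inflammasome groups lie between that of macrophage markers (-0.47) and 0, and that of the NF-κB subunits lies at 0.31.

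The adaptors join receptors to kinases. *Myd88*, used by nearly all Toll-like receptors, had 884.1 in Tg and 1004 in WT (-0.18). *Tirap*, which bridges MyD88 to TLR2 and TLR4, had 527.4 in Tg and 428.9 in WT (0.298), and its other probe set had 0.09. It was over 0.3 after median centring or quantile normalization. *Ticam1*, encoding the TRIF adaptor of TLR3 and TLR4, had 195.9 in Tg and 242.6 in WT (-0.31). All 3 adaptors thus lay within the threshold or next to it, and the call of *Ticam1* was lost after median centring, quantile normalization, loess or a pseudocount.

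*Irak1*, a kinase recruited by MyD88, had the highest signal log ratio of the list. Its brightest probe set had 1532 in Tg and 988.0 in WT (0.63). The other 3 had signal log ratios of 0.11, 0.23 and 0.11, and the median over the 4 probe sets was 0.17. All 4 probe sets were higher in Tg, and only the brightest was over 0.3. *Irak2*, which sustains later signalling, had 1109 in Tg and 1167 in WT (-0.07). *Irak3*, encoding IRAK-M, an inhibitor of the pathway found mainly in macrophages, had 532.1 in Tg and 524.2 in WT (0.02). Its second probe set had 31.4 in Tg and 104.3 in WT (-1.73), with a WT signal just above the filter. *Tollip*, an inhibitor of IRAK1, had 1374 in Tg and 1370 in WT (0.0039), while its second probe set had 142.6 in Tg and 233.4 in WT (-0.71). For both inhibitors, the brightest probe set was level between the genotypes and the dimmer one was lower in Tg.

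Beside such splits stands a difference between the arrays in the bacterial poly-A controls, spiked in before labelling. In all 8 pairs of their probe sets, the 5′ probe set had a lower signal log ratio than the 3′ one, with a median difference of -0.55 and a range from -0.80 to -0.22. For 8 pairs of hybridisation controls, spiked in later, the median difference was -0.005 (range -0.15 to 0.31). The poly-A pairs read dap, lys, phe and thr, and the hybridisation pairs bioB, bioC, bioD and cre, each more than once. The pairs of a kind are therefore not independent. A further control, TrpnX, had the higher signal log ratio on its 5′ probe set (difference 0.44). For 5 mouse transcripts with such pairs the median was -0.25, with *Actb* at -0.25, *Gapdh* at -0.33, *Pcx* at -0.16, *Tfrc* at -1.67 and 18S ribosomal RNA at 0.31. The places along their transcripts of the probes for the genes described here were not analysed here, and the part of this difference in the values above was not tested.

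**Figure D4:**
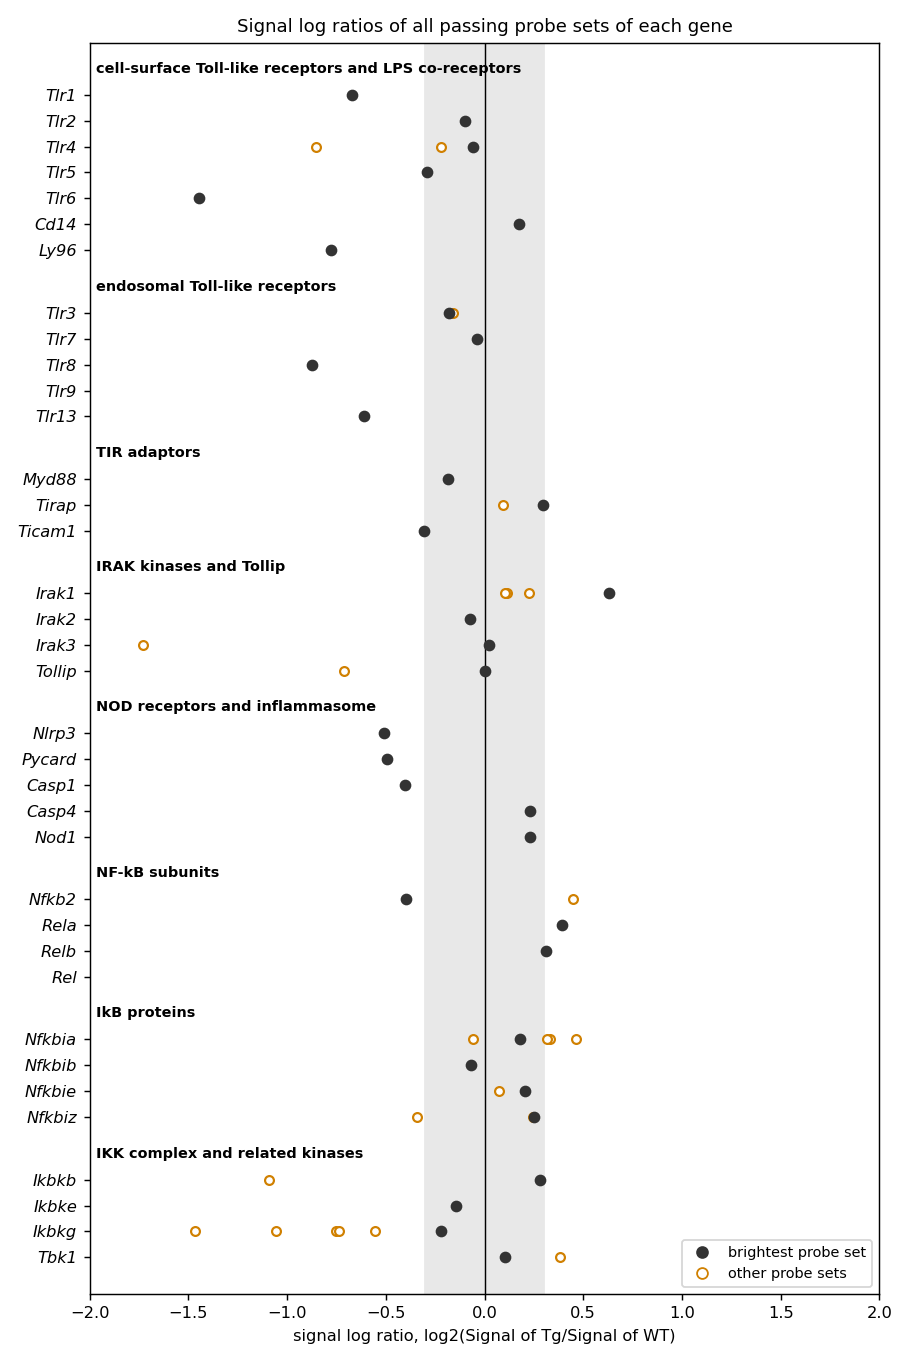
Signal log ratio (log2 of Tg over WT, horizontal axis) of all 58 passing probe sets of the 34 genes, by gene and role: black points are the brightest probe set of a gene, open orange points its other probe sets, and the grey band covers -0.3 to 0.3. *Tlr9* and *Rel* have no passing probe set. The probe sets of *Ikbkg* all lie left of 0, and those of *Nfkb2* lie on both sides of the band.

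Of the 7 genes of NOD receptors and the inflammasome, 5 passed. None of the 5 exceeded 0.3. Under -0.3 were 3, or 60%, against 16.9% of all genes. These 3 were the sensor, the adaptor and the protease of the same complex. *Nlrp3*, the sensor of crystals, ion flux and metabolic danger signals, had 117.8 in Tg and 167.4 in WT (-0.51). *Pycard*, the adaptor ASC, had 1003 in Tg and 1413 in WT (-0.49). Its other probe sets were under the filter, 1 with 57.6 in Tg and 56.0 in WT and 1 with 27.8 in Tg and 47.8 in WT. *Casp1*, the protease, had 1127 in Tg and 1489 in WT (-0.40). *Nlrp3* and *Casp1* lay within the range of genes with a like signal, which began at -0.94 and -0.47. *Pycard* lay just below its own, which began at -0.48. All 3 stayed under -0.3 with each scaling, pseudocount and floor tried, *Casp1* at -0.32 after median centring, while *Nlrp3* did not pass the stricter filter. *Casp4*, the neighbour of *Casp1* in the gene order and the sensor of cytosolic lipopolysaccharide known in mice as caspase-11, had 587.9 in Tg and 500.9 in WT (0.23). *Nod1*, a sensor of bacterial peptidoglycan, had 876.6 in Tg and 748.4 in WT (0.23). These 2 sensors were thus on the other side of 0 from the NLRP3 complex. Both were over 0.3 after median centring.

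Among the NF-κB subunits, *Rela*, encoding p65, had 2504 in Tg and 1906 in WT (0.39). *Relb*, the partner of p52 in the noncanonical pathway, had 369.2 in Tg and 298.0 in WT (0.31), and with a pseudocount of 25.1 it was 0.29. *Nfkb2*, which encodes the precursor of p52, gave opposite values. Its brightest probe set had 256.9 in Tg and 338.9 in WT (-0.40), whereas the other had 267.1 in Tg and 195.9 in WT (0.45). No direction can be given for this gene. *Rel*, encoding c-Rel of lymphocytes and myeloid cells, was under the filter, with 62.2 in Tg and 30.9 in WT.

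The IκB proteins hold NF-κB in the cytoplasm, apart from the nuclear IκBζ. *Nfkbia*, encoding IκBα, the inhibitor that NF-κB itself induces, had 8411 in Tg and 7418 in WT on its brightest probe set (0.18). Its other passing probe sets had 0.46, 0.33, 0.31 and -0.06, so that 4 of 5 were higher in Tg. *Nfkbie*, encoding IκBε, had 295.8 in Tg and 256.7 in WT (0.20), with 0.07 on the other probe set. *Nfkbib*, encoding IκBβ, had 493.6 in Tg and 517.4 in WT (-0.07). *Nfkbiz*, encoding IκBζ, a nuclear cofactor for a subset of NF-κB target genes, had 689.0 in Tg and 578.3 in WT (0.25). Its other probe sets had 0.24 and -0.34. By their brightest probe sets, none of the 4 IκB genes was past the threshold. *Nfkbiz* was over 0.3 after median centring.

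The IKK complex consists of 2 kinases and a scaffold. *Ikbkb*, the kinase IKKβ of the canonical pathway, had 1677 in Tg and 1380 in WT (0.28), and its second passing probe set had 211.8 in Tg and 450.7 in WT (-1.09). *Ikbkg* encodes the scaffold NEMO, on which canonical signalling depends. Its brightest probe set had 814.4 in Tg and 947.8 in WT (-0.22). Its 5 other passing probe sets had signal log ratios of -0.75, -0.55, -0.74, -1.47 and -1.06 from the second brightest to the dimmest. All 6 were lower in Tg, with a median of -0.74, and this gene counts as between the thresholds only because its brightest probe set is the value used. *Ikbke* and *Tbk1* are the related kinases that act on interferon regulatory factors. *Ikbke* had 226.4 in Tg and 250.7 in WT (-0.15). *Tbk1* had 1860 in Tg and 1729 in WT (0.11), with 0.38 on its other probe set.

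Other genes of the same pathways were read from further lists, which share 2 genes. *Il1b* is on both the inflammasome list and the target list, and *Tnfaip3* on both the regulator list and the target list. Each is counted in both of its lists. Beside the counts of each list stand the shares of all passing genes, 16.6% over 0.3 and 16.9% under -0.3. Of 24 other genes of Toll-like receptor signalling, 21 passed, with a median of -0.0013. Over 0.3 were 2, or 9.52%, and under -0.3 were 5, or 23.8%. The 4 with the largest values whose probe sets went the same way were all lower in Tg: *Lbp* (-0.60), the serum protein that carries lipopolysaccharide, *Irf5* (-0.57), a transcription factor of inflammatory macrophages, *Pik3ap1* (-0.56) and *Ly86* (-0.41), encoding MD-1, a relative of MD-2. *Lbp* had a signal of 5874 in Tg and 8885 in WT. *Traf6*, the ubiquitin ligase downstream of the IRAK kinases, had 286.1 in Tg and 148.2 in WT (0.95) on its brighter probe set and went the other way on the dimmer one. It was chosen after its values were seen.
Of 19 other genes of the inflammasome and NOD pathways, 10 passed, with a median of -0.29. Over 0.3 was 1, or 10%, and under -0.3 were 5, or 50%. *P2rx7*, the ATP-gated channel that triggers NLRP3, had 228.1 in Tg and 432.6 in WT (-0.92). *Naip2* (-0.85) and *Naip5* (-0.59) encode sensors of the inner rod of bacterial secretion systems and of flagellin, and they belong to a family of close copies whose probes may not be distinct. *Il18*, a substrate of caspase-1, had 1385 in Tg and 1033 in WT (0.42).
Of 17 other regulators of NF-κB, 16 passed, of which 3 were over 0.3 and 4 under -0.3, with a median of -0.05. Among those under -0.3 were *Nfkbid* (-1.03), *Tnfaip3* (-0.35) and *Tnip1* (-0.41). *Tnfaip3* encodes the inhibitor A20, and *Tnip1* encodes a partner that binds A20. *Nfkbid*, an atypical IκB protein, had 65.1 in Tg and 133.3 in WT, so it passed only by its WT signal. The median of the 15 regulators left by the filter on the lower signal was 0.052. *Rnf31*, a catalytic part of the linear ubiquitin ligase, had 384.4 in Tg and 268.8 in WT (0.52).
Of 24 genes known as NF-κB targets, 20 passed, with a median of -0.32. Over 0.3 were 2, or 10%, against 16.6% of all genes. Under -0.3 were 10, or 50%, against 16.9%. The chemokine gene *Ccl2*, which draws monocytes into fat and is among the genes the study named from these arrays, had 322.4 in Tg and 1109 in WT (-1.78). The fold change that the study listed for this gene was also a decrease, but a much smaller one. *Il1rn*, the IL-1 receptor antagonist, had 106.1 in Tg and 360.7 in WT (-1.77). *Cxcl2* (-1.29), a neutrophil chemokine, and *Lcn2* (-1.19), a siderophore-binding protein, had Tg signals of 61.3 and 58.8, both under the filter. *Il1b* (-0.39) and *Traf1* (-0.76), with Tg signals of 92.0 and 89.5, also passed only by their WT signal, with Tg under the filter. *Tnf*, *Il6*, *Nos2* and *Il12b* were under it on both arrays. With the filter on the lower signal, the median of the remaining 15 target genes was -0.15. Thus most of the target genes past the threshold were lower in Tg, while *Rela* and *Relb* were higher and *Nfkbia* was within the threshold on its brightest probe set but over 0.3 on 3 of its 5.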

How the data were processed

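The deposited signals are intensity values on a linear scale, which the authors obtained through GeneChip Operating Software. The submitters' processing notes name MAS5, which weighs perfect-match against mismatch probes of each probe set and scales whole arrays, here to a mean of 500.003 without the lowest and highest 2% of signals. The genome build was not given in the sources used here. The authors' Present calls were not used, and the filter at 98.2 stands in for them. Ratios were taken on the log2 scale, Tg over WT, from the deposited signals without a pseudocount or further normalization.

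Of 45101 probe sets, 64 were controls, 34945 had 1 gene symbol, 932 had several and 9160 had no gene symbol in the annotation of the platform. With 1 array per genotype nothing could be tested, and the number of arrays limits the precision. The genes, lists, markers, motifs and alternatives were chosen with earlier results of these data known. All genes of the list are named. Of each further list, up to 4 genes with the largest log2 ratio whose passing probe sets went the same way are named, with the 3 brightest macrophage markers. Genes named beyond this were chosen after their values were seen. Alternatives tried were other filters, other thresholds, other probe sets of a gene, median centring, quantile normalization, loess with a span of 0.3, a pseudocount of 25.1 and a floor of 56.9. Promoter sequences were those of RefSeq for GRCm38.p6. The script that counts genes past the threshold was tested on simulated data. Scripts ran in Python 3.11.15 (pandas 2.3.3, numpy 2.4.6, matplotlib 3.10.9, statsmodels 0.14.6).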

Additional observations from a re-analysis of the deposited data

How the results depend on the processing

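Of 367 values of single genes of the list under the alternatives, 356 moved by less than 0.41 (the within-gene SD over probe sets of the array), 9 moved by more, all of them under another choice of probe set, and 2 went from past the threshold to the other side of 0. Both were of *Nfkb2*, at 0.024 as the median over probe sets and 0.45 on the second brightest. A filter cannot change the value of a gene, and the floor lay below the signals used for the passing genes. Their values under these settings were thus fixed in advance, and median centring shifts every gene alike. The count of 356 is therefore no measure of stability. On second-brightest probe sets, 7 of 13 values moved by less than 0.41, 5 by more and 1 to the other side of 0. Values within 0.3 of 0 changed sign in 12 further cases, of *Tlr4*, *Tlr7*, *Irak2*, *Nfkbib* and *Tollip* under a scaling and of *Ikbkb*, *Irak3* and *Tollip* under another choice of probe set. The number of genes over 0.3 was 8 after median centring, and 1 and 0 of 34 at thresholds of 0.5 and 1, which 6.49% and 1.02% of all genes passed. The number under -0.3 was 3 with the stricter filter, 4 of 13 on second-brightest probe sets, where 25.8% of 5260 genes were under -0.3, and 6 and 1 of 34 at thresholds of -0.5 and -1, against 8.79% and 1.87% of all genes. The median of the list was 0.074 on second-brightest probe sets. With the stricter filter, the median was -0.11 for NF-κB targets, 0.053 for other regulators of NF-κB and 0.098 for 4 other inflammasome genes, a change of sign. With the filter on the lower signal, it was -0.15 for targets and 0.052 for regulators, which also had 0.052 with the filter on the geometric mean. Without a filter, 14 other inflammasome genes had -0.097. On probe sets without a suffix, the medians were -0.16 for other genes of Toll-like receptor signalling, -0.076 for inflammasome genes and -0.15 for regulators. On second-brightest probe sets, they were -0.21 for Toll-like receptor signalling, -0.76 for 3 inflammasome genes and -0.43 for 6 targets. These filters and probe set choices leave fewer or other genes, and further causes were not tested. No paired analysis was possible because each genotype had 1 array, and no array could be left out.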

Other observations

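Markers of other leukocytes gave mixed values, read with the same filter. Of 10 neutrophil markers, 4 passed the filter, with a median log2 ratio of -0.42. They ran from *S100a8* with 847.8 in Tg and 2294 in WT (-1.44) through *S100a9* (-0.79) and *Elane* (-0.06) to *Csf3r* (0.67). *S100a9*, with 90.5 in Tg and 156.1 in WT, passed only by its WT signal. *Csf3r*, with 109.1 in Tg and 68.4 in WT, passed only by its Tg signal. *Elane* lay just above the filter, with 102.5 in Tg and 106.8 in WT. Of 6 mast cell markers, 5 passed, with a median of 0.25. T and NK cell markers had a median of -0.38 over 5 genes, and B cell markers -0.21 over 4. Of these, *Cd8a* passed only by its WT signal. All 7 mesothelial markers were above 0, with a median of 0.22.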
